A study of Homo sapiens with 6 samples.

Results

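The genes described here encode antimicrobial proteins and granule enzymes of Paneth cells: DEFA5, DEFA6, LYZ, PLA2G2A, REG3A, ITLN1, ITLN2, MMP7 and PRSS2. Every probe set whose platform gene symbol was 1 of these 9 was taken. This gave 11 probe sets for 8 of the genes, out of 41091 probe sets with 1 gene on the array. ITLN2 had no probe set under its symbol, and 1 further probe set was annotated to PRSS1 and PRSS2 together. The samples were cultures of LS174T, a human colon adenocarcinoma line that makes mucin, treated for 48 h with CompE at 250 nM (3 cultures, replicates 1 to 3) or with the vehicle DMSO (3 cultures, replicates 1 to 3). All 6 were grown in EMEM with fetal bovine serum and antibiotics, and each was measured on 1 Affymetrix Human U133 Plus 2.0 array. The labels do not spell out CompE, by which Compound E, a gamma-secretase inhibitor, is generally meant. The model is 1 tumour line without a tissue around it, and none of the cultures is a preparation of Paneth cells.

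Paneth cells lie at the base of small intestinal crypts and release granules with alpha-defensins, lysozyme, secreted phospholipase and lectins, which kill or hold back microbes. They arise from secretory progenitors. Notch signalling keeps progenitors from that fate by way of the repressor HES1, which holds down the transcription factor ATOH1, and gamma-secretase is the protease that releases the active intracellular part of Notch receptors. In human Paneth cells trypsin cuts the stored DEFA5 precursor into its active form, a step that the metalloprotease MMP7 carries out for the mouse alpha-defensins. In healthy colon Paneth cells are rare.

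With CompE, 3 of these genes rose, namely the alpha-defensin genes DEFA6 and DEFA5 and the phospholipase gene PLA2G2A. Both probe sets of the trypsinogen gene PRSS2 fell, but by their names their probes also match other sequences. That fall therefore cannot be assigned to PRSS2 alone. The lysozyme gene LYZ was lower in CompE on both of its probe sets, by a difference that did not pass. REG3A, ITLN1 and MMP7 were below background on all 6 arrays. Of the 11 probe sets, 8 passed a filter on dim probe sets, and of these 5 had an adjusted p under 0.05 (3 higher and 2 lower), where 4.28% of all 26962 probe sets tested did (2.72% higher and 1.55% lower). A rise or fall is called in the following where that threshold was passed in the limma fit over all these probe sets. The CompE and DMSO arrays did not overlap for 7 of the 8 probe sets, where 29.7% of all probe sets tested had no overlap. Of the 5, 3 changed at least 2-fold, DEFA5 and DEFA6 upwards and the dimmer PRSS2 probe set downwards, where 0.523% of all probe sets did (0.367% higher and 0.156% lower). In a fit of all 41091 probe sets without the filter, 4 of the 11 passed, where 0.526% of all did.

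**Figure D1:**
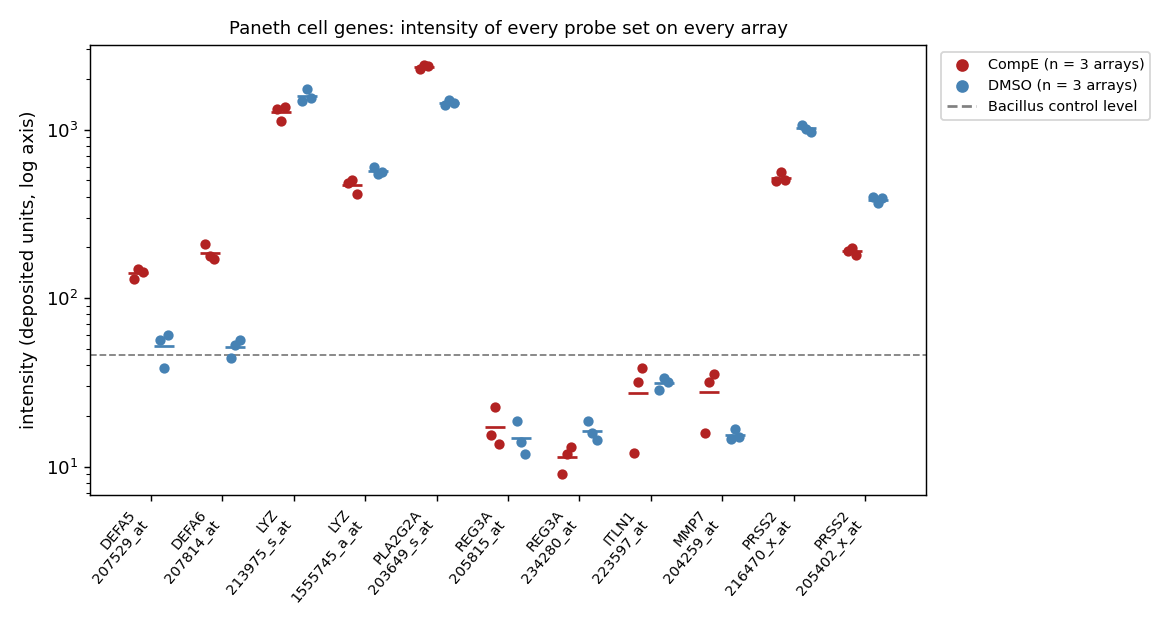
Intensity on a log axis (deposited units) of the 11 probe sets of the Paneth cell genes. Each point is 1 array (3 CompE in red, left of 3 DMSO in blue), short bars are group means and the dashed line is the level of the Bacillus controls, 45.7. DEFA5 and DEFA6 lie near that line in DMSO and above it on all 3 CompE arrays, whereas REG3A, ITLN1 and MMP7 lie below it on all arrays.

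Median intensities of the arrays lay between 36.9 and 38.6, and the correlation across probe sets between arrays of a group was 0.987 to 0.988. As a measure of background, the 95th percentile of 27 probe sets for Bacillus transcripts was used, an intensity of 45.7. The ratio of the 3' to the 5' probe set of ACTB, a measure of RNA integrity, was 1.51 ± 0.0193 in CompE and 1.44 ± 0.0201 in DMSO (SD, n = 3 each; two-sided exact permutation p = 0.1, the smallest that 3 against 3 arrays allow). The hybridisation controls, bacterial transcripts added in equal amount by the standard protocol, were on average 0.14 log2 units brighter in CompE (exact permutation p = 0.1). The part of either in the results was not tested beyond a fit with each array centred on those controls. That fit moved the median change of all probe sets to -0.13, against 0.01 as deposited. In it the 3 rises and the falls of both PRSS2 probe sets still passed.

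DEFA6 encodes an alpha-defensin that forms nets around bacteria. Its probe set read 209.8, 177 and 169.6 in the CompE cultures, against 44.4, 52.3 and 56.4 in the DMSO cultures. Every CompE array lay above every DMSO array, and 1 of the 3 DMSO arrays lay below the Bacillus level. The means were 185 ± 21.5 in CompE and 51.0 ± 6.11 in DMSO (SD, n = 3 each), a 3.63-fold rise (log2 change 1.86 ± 0.12 SE, limma adjusted p = 0.00291). This was the 11th largest log2 change upwards among all probe sets tested. The DMSO mean lay close to the Bacillus level of 45.7, so the size and rank of the change are uncertain (1.59 with log2(value + 16)). The rise passed whichever array was left out (adjusted p 0.0162 to 0.0236).

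DEFA5, a gene of the same defensin cluster, encodes an alpha-defensin that kills bacteria and is activated by trypsin. Its intensities were 129.8, 149.7 and 142 in CompE, against 56.4, 38.3 and 60.5 in DMSO. Again the groups did not overlap, and DMSO replicate 2 was the array below the Bacillus level. DEFA5 averaged 140.4 ± 10.0 in CompE and 51.7 ± 11.8 in DMSO (SD, n = 3 each), a 2.76-fold rise (log2 change 1.47 ± 0.18 SE, limma adjusted p = 0.0170). Its DMSO mean also lay close to the Bacillus level, so the size of the rise is uncertain (log2 change 1.22 with log2(value + 16)). The DEFA5 call ended under several alternatives. In limma its adjusted p was 0.0702 without CompE replicate 1, 0.0671 without CompE replicate 2, 0.0643 without CompE replicate 3 and 0.0563 without DMSO replicate 1, and it was 0.0700 with no filter on dim probe sets, while the log2 change stayed between 1.26 and 1.59 when 1 array was left out.

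The probe sets of both defensin genes end in _at, the platform's name for probes chosen to be unique to 1 transcript. Of the neutrophil alpha-defensin genes listed, DEFA1, DEFA3 and DEFA4, only DEFA4 had a probe set of its own. It was at 41.9 ± 9.30 in CompE and 33.2 ± 5.27 in DMSO (SD, n = 3 each), below background in both groups, and did not pass. Within each array, the log2 level of DEFA6 minus that of DEFA5 was 0.69, 0.24 and 0.26 in CompE, against -0.35, 0.45 and -0.10 in DMSO. These ranges overlapped, and the difference of 0.40 between the groups did not hold against the spread (two-sided exact permutation p = 0.3, smallest possible 0.1). A larger rise of DEFA6 than of DEFA5 was therefore not shown.

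PLA2G2A encodes a secreted phospholipase that breaks down bacterial membranes. It read 2295, 2412 and 2383 in CompE, against 1395, 1492 and 1445 in DMSO. The 2 ranges were far apart and each was narrow. The means were 2364 ± 60.9 in CompE and 1444 ± 48.3 in DMSO (SD, n = 3 each), a 1.64-fold rise (log2 change 0.71 ± 0.06 SE, limma adjusted p = 0.00447), which passed whichever array was left out (adjusted p 0.0271 to 0.0320). The probe set ends in _s_at, a name for probes shared by several transcripts, so that signal from other transcripts with the same probe sequences would be read as PLA2G2A. Of 6 other secreted phospholipase genes tested, 0 passed in limma (1 higher and 0 lower at an unadjusted p under 0.05, and 1 higher with trend and robust variances), with a median log2 change of 0.19 beside 0.02 for all genes tested.

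Promoter windows of 300 bases were taken, from 250 before to 50 after a transcription start (RefSeq, GRCh38.p14). The set used held 8 windows for 6 of the 9 genes and none for DEFA5, DEFA6 and LYZ, which were not searched. The windows were searched on both strands for CAGCTG, an E-box core that basic helix-loop-helix factors such as ATOH1 bind, for CTTTGAA and CTTTGAT, sites of the TCF/LEF factors of Wnt signalling, and for GTGGGAA, a site of the Notch partner RBPJ. CAGCTG occurred in 3 of the 8 windows, of which 2 are overlapping windows of PLA2G2A and the other is that of PRSS2, and in 17.9% of 34943 windows of all genes. CTTTGAA or its reverse complement occurred at 2 places in the window of MMP7 and in 4.44% of all windows. CTTTGAT and GTGGGAA occurred in 0 of the 8, and in 2.63% and 6.24% of all windows. A match is a description of letters and not evidence of binding. The other PLA2G2A window, at a start further upstream (chr1:19980385-19980684), had no CAGCTG. Of the windows with the match, 1 is shown because PLA2G2A rose with the defensin genes, with CAGCTG in capitals, at position -115 relative to the start (minus strand, chr1:19979610-19979909).
PLA2G2A: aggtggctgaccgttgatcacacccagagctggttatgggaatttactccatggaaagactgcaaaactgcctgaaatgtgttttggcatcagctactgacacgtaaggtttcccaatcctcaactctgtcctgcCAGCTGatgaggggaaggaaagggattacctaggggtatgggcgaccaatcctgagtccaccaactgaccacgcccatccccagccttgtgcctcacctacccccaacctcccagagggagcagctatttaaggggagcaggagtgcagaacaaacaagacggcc

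**Figure D2:**
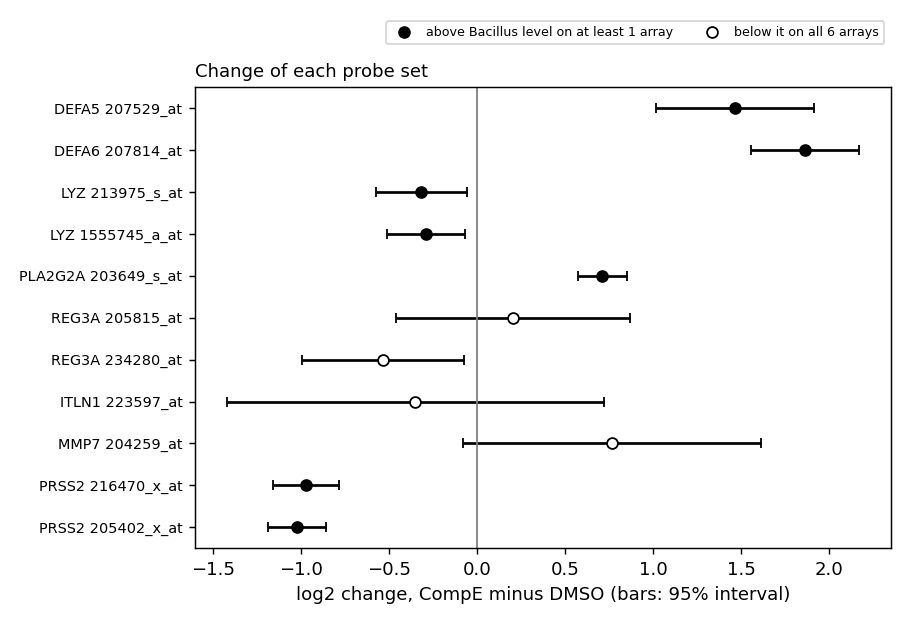
Log2 change, CompE minus DMSO, of each probe set with its 95% interval from limma (n = 3 arrays per group). Filled points were above the Bacillus level on at least 1 array, open points below it on all 6. DEFA6 (1.86), DEFA5 (1.47) and PLA2G2A (0.71) lie to the right of 0 and both PRSS2 probe sets (-0.97 and -1.02) to the left, and the intervals of 3 of the 4 open points include 0.

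PRSS2 encodes an anionic trypsinogen, the stored form of trypsin, which in Paneth cells activates DEFA5. Its brighter probe set read 495, 563 and 499 in CompE, against 1062, 1011 and 972 in DMSO. Its dimmer probe set read 191, 198 and 179 in CompE, against 397, 364 and 391 in DMSO. On both, all CompE arrays lay well below all DMSO arrays. The brighter one averaged 519 ± 38.3 in CompE and 1015 ± 45.1 in DMSO (SD, n = 3 each), with a log2 change of -0.97 ± 0.08 SE (limma adjusted p = 0.00437), and the dimmer one gave -1.02 ± 0.07 (limma adjusted p = 0.00291). Both falls passed whichever array was left out, with adjusted p up to 0.0323.

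These 2 probe sets end in _x_at, which marks probes that also match other sequences, and human trypsinogen genes are close copies of each other. The readings therefore cannot be assigned to PRSS2 alone. The array held 6 trypsinogen probe sets, 5 of them ending in _x_at, and all 5 fell, with log2 changes from -1.02 to -0.77 (limma adjusted p 0.00291 to 0.0172). The brighter PRSS3 probe set averaged 679.9 ± 68.9 in CompE and 1159 ± 21.9 in DMSO, and the other 526 ± 37.0 in CompE and 929 ± 42.4 in DMSO (SD, n = 3 each). The probe set of PRSS3P2, a trypsinogen pseudogene, averaged 419.9 ± 38.9 in CompE and 713 ± 55.4 in DMSO (SD, n = 3 each). The call of the brighter PRSS3 probe set ended in limma without CompE replicate 1 (adjusted p = 0.0641) and without DMSO replicate 1, 2 or 3 (0.0591, 0.0627 and 0.0591). That of PRSS3P2 ended without CompE replicate 1 or 3 (0.0814 and 0.0570) and without DMSO replicate 1, 2 or 3 (0.0698, 0.0785 and 0.0505). Both also ended with no filter (0.0594 and 0.0737).

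The sixth probe set is annotated to PRSS1 and PRSS2 together and ends in _at. It read 43.7, 51.4 and 45.6 in CompE, against 57.25, 52.9 and 48.5 in DMSO. The groups overlapped, the level lay close to background, and the log2 change of -0.17 ± 0.11 SE did not pass (adjusted p = 0.582 in a limma fit of all probe sets). The 5 probe sets ending in _x_at thus fell together, while the only probe set of the family without that suffix was near background in both groups. Which trypsinogen transcript was measured was not tested, since no probe sequences were used here.

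**Figure D3:**
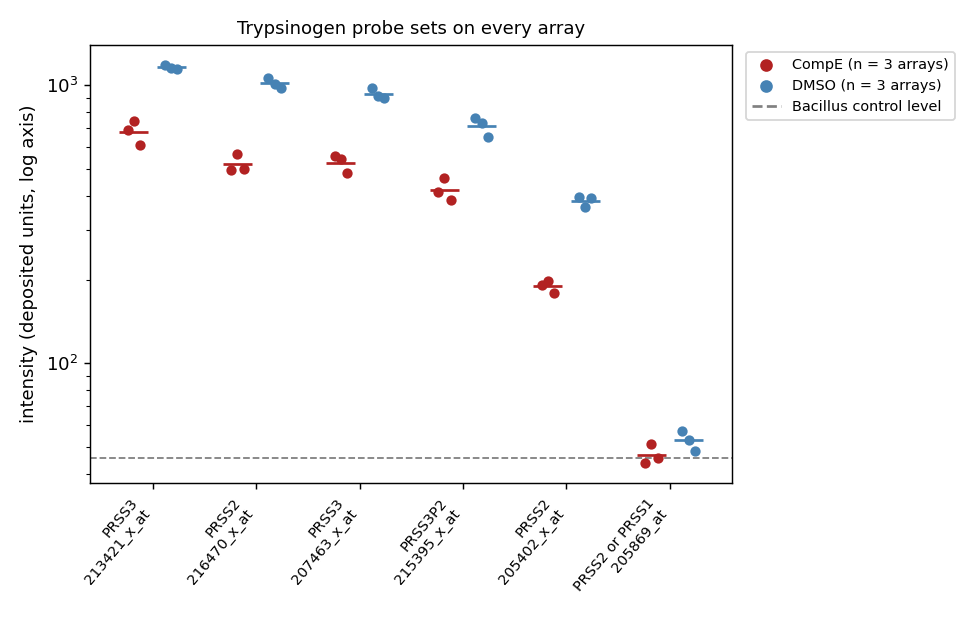
Intensity on a log axis (deposited units) of the 6 trypsinogen probe sets, with 3 CompE arrays in red left of 3 DMSO arrays in blue, group means as short bars and the Bacillus control level, 45.7, as a dashed line. The 5 probe sets ending in _x_at are lower on every CompE array than on every DMSO array, and the probe set annotated to PRSS1 and PRSS2 stays near the dashed line in both groups.

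The windows around the starts of the 3 functional trypsinogen genes are shown to illustrate how alike these genes are. The probes of the array lie near the 3' ends of transcripts and not in these windows. In pairwise alignments, 87.9% of positions were identical between PRSS1 and PRSS2, and 85.7% between PRSS3 and PRSS2. All 3 are plus strand windows of GRCh38.p14, namely chr7:142770720-142771019 for PRSS2, chr7:142749222-142749521 for PRSS1 and chr9:33795311-33795610 for PRSS3. Capitals mark bases of PRSS1 and PRSS3 that differ from the aligned base of PRSS2 or are inserted, 31 in PRSS1 and 37 in PRSS3.
PRSS2: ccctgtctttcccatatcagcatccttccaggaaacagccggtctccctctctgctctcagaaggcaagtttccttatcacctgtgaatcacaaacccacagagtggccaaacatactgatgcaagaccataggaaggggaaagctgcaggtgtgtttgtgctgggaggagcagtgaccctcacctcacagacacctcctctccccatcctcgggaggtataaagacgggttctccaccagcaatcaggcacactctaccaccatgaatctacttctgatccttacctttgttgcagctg
PRSS1: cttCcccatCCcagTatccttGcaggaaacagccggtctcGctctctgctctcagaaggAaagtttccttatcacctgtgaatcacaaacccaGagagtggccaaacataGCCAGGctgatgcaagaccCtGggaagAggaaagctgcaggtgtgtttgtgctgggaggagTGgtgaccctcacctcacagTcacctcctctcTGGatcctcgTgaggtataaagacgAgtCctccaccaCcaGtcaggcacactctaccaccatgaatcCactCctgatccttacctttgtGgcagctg
PRSS3: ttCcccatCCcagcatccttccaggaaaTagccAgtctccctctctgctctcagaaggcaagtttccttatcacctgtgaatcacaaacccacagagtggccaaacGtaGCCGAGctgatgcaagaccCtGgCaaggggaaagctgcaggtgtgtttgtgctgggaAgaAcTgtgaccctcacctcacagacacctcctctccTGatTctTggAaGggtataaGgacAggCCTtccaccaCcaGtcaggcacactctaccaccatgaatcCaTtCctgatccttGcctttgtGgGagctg

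LYZ encodes lysozyme, which cuts the cell wall of bacteria. Its brighter probe set read 1324, 1124 and 1363 in CompE, against 1468, 1738 and 1536 in DMSO. Its dimmer probe set read 483, 504 and 417 in CompE, against 601, 546 and 563 in DMSO. The CompE arrays lay below the DMSO arrays on both and did not overlap with them. The log2 changes of -0.32 ± 0.11 and -0.29 ± 0.09 SE (95% intervals from -0.57 to -0.06 and from -0.51 to -0.07) did not pass (limma adjusted p = 0.158 and 0.139). With variances moderated along a trend with intensity and robustly, they did (0.0175 and 0.0150), and the dimmer one also did with arrays centred on the hybridisation controls (0.0286). The suffixes are _s_at for the brighter and _a_at, for alternative transcripts of 1 gene, for the dimmer probe set. LYZ thus did not rise with the defensin genes on either of them.

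The remaining genes could not be measured at these levels. REG3A, a lectin that binds bacterial cell walls, read 15.3, 22.6 and 13.7 in CompE, against 18.6, 14.001 and 11.9 in DMSO, and its other probe set 9.01, 11.9 and 13.1 in CompE, against 18.6, 15.8 and 14.5 in DMSO. ITLN1, a lectin for microbial glycans, read 12.0, 31.8 and 38.6 in CompE, against 28.6, 33.5 and 31.7 in DMSO. MMP7 read 15.7, 31.9 and 35.4 in CompE, against 14.5, 16.6 and 14.97 in DMSO. All of these readings lie below the Bacillus level of 45.7, so they give no fold change and no order. The second REG3A probe set had no overlap between the groups, and none of the 4 passed in limma (adjusted p from 0.289 to 0.776, without the filter for all but ITLN1, which had 0.692 with it; 1 of the 4 at an unadjusted p under 0.05). All 4 end in _at.

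Factors that direct the secretory and Paneth fates were considered next, from a list of 18 genes of which 12 were tested. Of these 3 rose, 0 fell and 9 did not pass in limma (4 higher and 1 lower at an unadjusted p under 0.05), and the median log2 change was -0.08, beside 0.02 for all genes. Of all genes tested by their brightest probe set, 3.23% rose and 1.72% fell. ATOH1, which commits progenitors to secretory fates, averaged 574 ± 53.7 in CompE and 94.1 ± 13.2 in DMSO (SD, n = 3 each; log2 change 2.61 ± 0.13 SE, limma adjusted p = 0.00145). The intestinal identity factor CDX2 rose with a log2 change of 0.43 (limma adjusted p = 0.0174), and SPDEF, a factor of goblet and Paneth cell maturation, with 0.35 (limma adjusted p = 0.0497). Both of these calls ended in limma whichever array was left out (0.0568 to 0.0785 for CDX2 and 0.0813 to 0.151 for SPDEF), and the other SPDEF probe sets ranged from -0.26 to 0.86. The SPDEF probe set used ends in _x_at, so its reading cannot be assigned to SPDEF alone. SOX9, which Paneth cells need to form in the mouse, averaged 3614 ± 51.6 in CompE and 3959 ± 174 in DMSO. Its log2 change of -0.13 did not pass (limma adjusted p = 0.261), and its other probe set past the filter had -0.48. XBP1, a factor of secretory cells, did not pass either, with 2556 ± 26.1 in CompE and 2369 ± 31.8 in DMSO (limma adjusted p = 0.274).

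Of 24 other antimicrobial and host defence genes, 14 were tested. In limma 3 of these rose, where 3.23% of all genes did, 1 fell, where 1.72% of all did, and 10 did not pass. Their median log2 change was -0.04. With no filter, and without CompE replicate 1, DMSO replicate 2 or DMSO replicate 3, 1 rose and 0 fell. Without DMSO replicate 1, 1 rose and 1 fell, and without CompE replicate 2, 2 rose and 0 fell. RETNLB, a goblet cell protein that acts on bacteria, rose with a log2 change of 2.09 (limma adjusted p = 0.000808). ZG16, a mucus lectin, rose with 0.84 (limma adjusted p = 0.0197), and REG4, a lectin of the REG family, with 0.42 (limma adjusted p = 0.0492). LCN2, which takes iron carriers from bacteria, fell with -0.73, from means of 262 ± 13.8 in CompE and 438 ± 63.3 in DMSO (SD, n = 3 each; limma adjusted p = 0.0293). The call of ZG16 ended without CompE replicate 1 (0.0792) and without DMSO replicate 1, 2 or 3 (0.0644, 0.0731 and 0.0732), and that of LCN2 whichever array other than DMSO replicate 1 was left out (0.0761 to 0.111). With no filter both calls ended as well (0.0805 for ZG16 and 0.105 for LCN2). The call of REG4 ended with no filter, without CompE replicate 1 or 2, and without DMSO replicate 1, 2 or 3.

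Genes of trypsinogens, their activator and trypsin inhibitors were taken as a further list. Of 10 genes, 7 were tested, of which 2 rose, 1 fell and 4 did not pass in limma. Among all genes, 3.23% rose and 1.72% fell. The fall was that of the brighter PRSS3 probe set, which ends in _x_at. It cannot be assigned to PRSS3 alone, and its call ended under the alternatives given above. SERPINA1, the gene of the serum inhibitor alpha-1 antitrypsin, averaged 432 ± 6.38 in CompE and 184 ± 8.12 in DMSO (SD, n = 3 each; log2 change 1.23 ± 0.06 SE, limma adjusted p = 0.00145), while its other 2 probe sets had log2 changes of 0.08 and 1.34. SPINK4, a secreted member of the Kazal inhibitor family that goblet cells make, averaged 2295 ± 124 in CompE and 832 ± 13.2 in DMSO (SD, n = 3 each; log2 change 1.46 ± 0.06 SE, limma adjusted p = 0.00132). SPINK1, the trypsin inhibitor of the pancreas, was at 199 ± 8.90 in CompE and 202 ± 1.46 in DMSO and did not pass (limma adjusted p = 0.888). The rises of SERPINA1 and SPINK4 passed whichever array was left out.

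**Figure D4:**
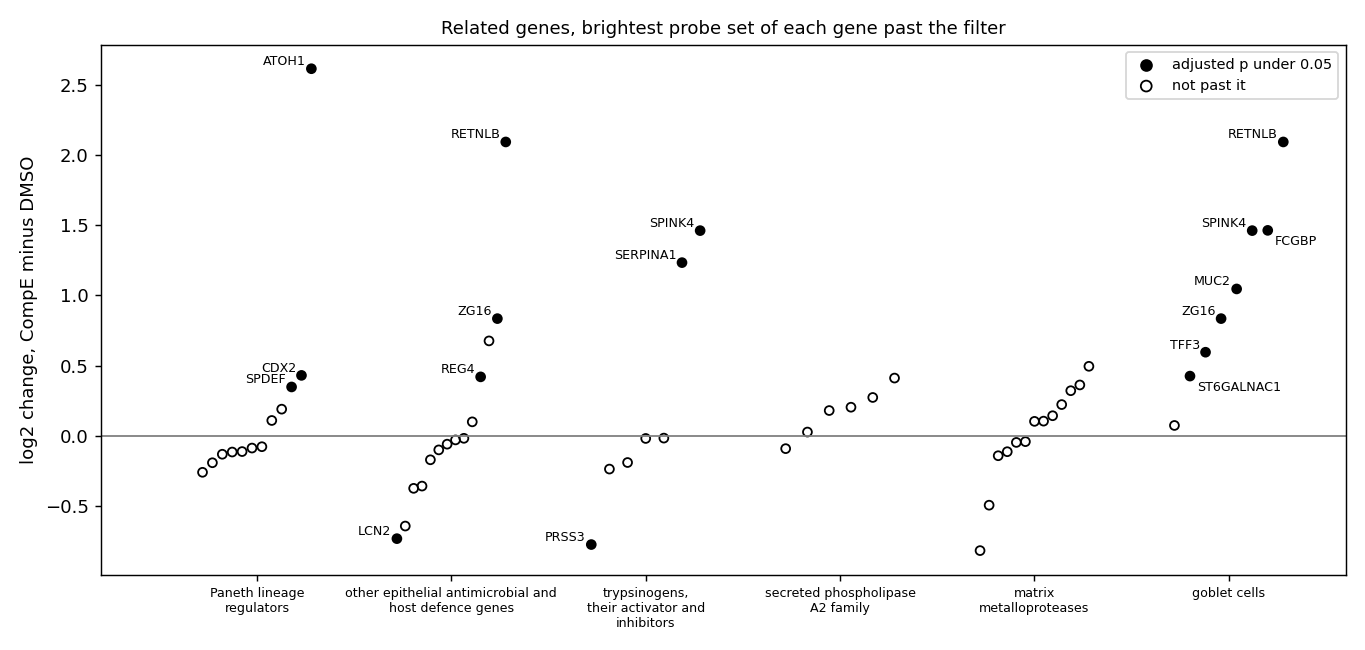
Log2 change, CompE minus DMSO, of genes related to the Paneth cell genes, by list, for the brightest probe set of each gene past the filter. Filled points passed (adjusted p under 0.05) and are named, open points did not. ATOH1 (2.61) and RETNLB (2.09) lie highest, and no phospholipase or metalloprotease gene passed.

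Markers of other cells that hold some of these proteins were low. Neutrophil granule and alpha-defensin genes, of which 7 of 9 had a probe set of their own, summed to between 137 and 167 in CompE and between 149 and 198 in DMSO, and 0 of the 7 were above the Bacillus level in either group. Leukocyte markers, 9 of 10 with a probe set, summed to between 235 and 326 in CompE and between 321 and 347 in DMSO, with 3 above that level. Pancreatic acinar genes, 6 of 11 with a probe set, summed to between 183 and 239 in CompE and between 169 and 205 in DMSO, with 1 above that level. No gene of these lists had a mean of 0 in both groups, and 0 of the 10 genes tested passed in limma (0 higher and 1 lower at an unadjusted p under 0.05). Among markers of other epithelial cells, those of goblet cells mostly rose with the defensin genes, and their part in the result was not tested. For goblet cells, all 10 had a probe set, 8 were above background, and their sum was between 21689 and 22970.3 in CompE and between 16188 and 16572 in DMSO. Of 8 tested, 7 rose and 0 fell in limma, where 3.23% of all genes rose and 1.72% fell. RETNLB, ZG16 and SPINK4, named above, were among the 7. The count was 4 without CompE replicate 1, DMSO replicate 2 or DMSO replicate 3 and with no filter, and 3 with the replicate block. Among all probe sets, 123, 162 and 152 of 26962 rose without those arrays, 147 of 41091 with no filter and 18 of 26962 with the block. Enteroendocrine markers, 9 of 10 with a probe set and 2 above background, summed to between 182.8 and 226 in CompE and between 143 and 184 in DMSO. Of 3 tested 1 rose, NEUROG3, the factor that starts that fate (log2 change 1.95, limma adjusted p = 0.00867, and 0.0512 without CompE replicate 1). NEUROG3 averaged 61.5 ± 3.54 in CompE and 16.2 ± 4.03 in DMSO (SD, n = 3 each). Its DMSO mean was below the Bacillus level, so the size of its change is uncertain (1.27 with log2(value + 16)). That mean was also below the filter's cut of 24.4, so NEUROG3 was tested only because of its CompE values. The count of 1 in 3 is therefore no measure of enteroendocrine markers. Markers of absorptive enterocytes, 11 of 11 with a probe set and 5 above background, summed to between 3441 and 3699 in CompE and between 3857 and 4109.9 in DMSO. Of 6 tested 1 fell, DPP4, a peptidase of the brush border (log2 change -0.71, limma adjusted p = 0.0130). That call ended without CompE replicate 1 (0.0693), DMSO replicate 1 (0.0591) or DMSO replicate 3 (0.0649) and with no filter (0.0620). In such bulk samples, more cells that express a gene and more RNA per cell cannot be told apart.

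For each gene that passed, the 3 genes with the most similar profile were found by the root mean square distance between log2 values centred on their mean over the 6 arrays. The distance reflects mostly the direction and size of the change between the groups. Closest to DEFA6 were KLK3 (distance 0.10), OR51E1 (0.13) and UGT2B15 (0.15), with means of 105 ± 8.38, 1906 ± 63.5 and 253 ± 13.4 in CompE, against 29.6 ± 4.54, 524 ± 9.26 and 84.0 ± 12.4 in DMSO. Closest to DEFA5 were BEST3 (0.06), NKD1 (0.16) and SERPINA1 (0.16, by another probe set than the one above). Closest to PLA2G2A were CD74, CREB3L4 and ADRA2A (0.04 each). Closest to the brighter PRSS2 probe set were CD70 (0.05), GPRC5A (0.07) and GCNT3 (0.07), which were lower in CompE, with means of 291 ± 13.4, 596 ± 37.8 and 738 ± 59.3, against 602 ± 44.1, 1155 ± 87.3 and 1390.5 ± 114 in DMSO. The DMSO means of KLK3 and BEST3 were below the Bacillus level. The probe set of UGT2B15 ends in _x_at, so its reading cannot be assigned to that gene alone.

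**Figure D5:**
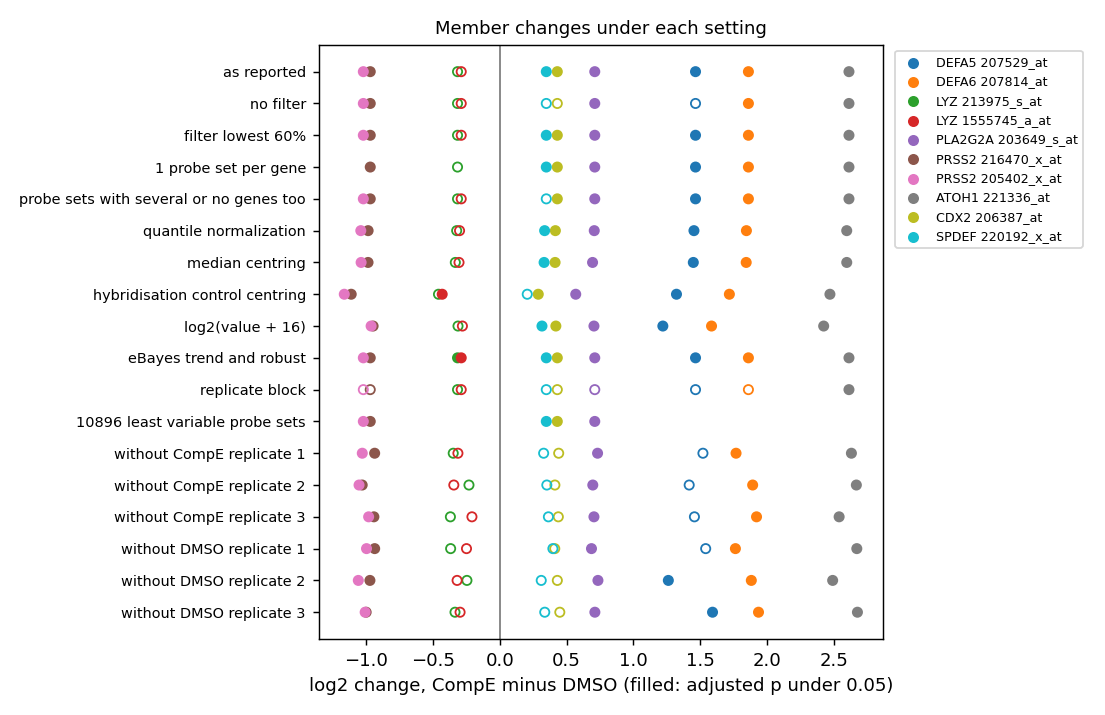
Log2 change, CompE minus DMSO, of 7 probe sets of the Paneth cell genes and those of ATOH1, CDX2 and SPDEF, as reported and under each alternative setting. A filled point has an adjusted p under 0.05 and an open one does not. DEFA6, PLA2G2A and both PRSS2 probe sets are filled in every setting that tested them but the one with the replicate number in the model. DEFA5 is open in 6 of 16 alternatives. ATOH1 is filled in all 16 that tested it, CDX2 in 9 of 17 and SPDEF in 7 of 17. ITLN1, also past the filter but below background, is not shown. None of the points shown changes side.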

How the data were processed

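RNA of 6 LS174T cultures, 3 with CompE and 3 with DMSO, grouped by sample title, was amplified from the 3' end, labelled with biotin and hybridised, per the labels' protocols. Deposited values are linear intensities, 1 per probe set, which the authors normalized between arrays with dChip, per the series design text. How dChip treated mismatch probes is not stated in them. For log2, values under 1 counted as 1. The 62 control probe sets and the lowest 40% by mean log2 value (under an intensity of 24.4) were left out, and the 26962 remaining probe sets with 1 gene in the platform annotation of GEO were tested with limma 3.58.1 in R 4.3.3 (lmFit and eBayes, two-sided, no covariate), with Benjamini-Hochberg adjustment over all of them and a threshold of 0.05. Of the probe sets with 1 gene, 41043 had their symbol taken from RefSeq by Entrez identifier and 54 kept the annotation's. For lists, the brightest probe set stood for its gene. No probe sequences were used, so the statements on shared probes rest on probe set names and annotation. On simulated data in this design, 200 of 26962 probe sets were changed 2-fold. Of these 142 were recovered, all in the right direction, with 7 false calls among the unchanged probe sets. With 3 arrays per group, log2 changes had a median standard error of 0.09, which the number of arrays limits. P-values measure the spread between 3 cultures per group.

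All probe sets of the 9 genes are reported. From each other list at most 3 genes that passed were to be named, by smallest p. DEFA4, REG4, SOX9, XBP1 and SPINK1 were named after their values were seen. The genes, lists and tests were chosen with earlier results of these data known. Sequences are from RefSeq (GRCh38.p14) and were aligned with Biopython 1.88.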

Additional observations from a re-analysis of the deposited data

How the results depend on the processing

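Over 34 single probe sets (8 of them of the Paneth cell genes) and 10 settings other than leaving out an array or adding the replicate number, all 311 values kept their direction, as did 203 of 204 values with 1 array left out. The exception was ITLN1, below background, at -0.35 as reported, 0.17 without CompE replicate 1 and -0.68 without CompE replicate 3. Of 1153 probe sets past the threshold as reported, the count was 216 with no filter, 2522 with the lowest 60% left out, 1987 centred on hybridisation controls (18.9% higher, against 63.7% as deposited), 3342 with trend and robust variances, 4085 over the 10896 least variable probe sets, and 193 to 402 with 1 array left out. At 2-fold the count was 141 as reported, 93 with 1 probe set per gene, 37 over the least variable probe sets, and 101 to 131 with 1 array left out. Of the 5 Paneth cell probe sets past the threshold, 4 remained with no filter, 4 or 5 with 1 array left out, and 3 over the least variable probe sets, where those of DEFA5 and DEFA6 were not tested. P-values of that last setting are too small, since the probe sets were selected by their variance. Over all probe sets tested, replicate numbers showed no pairing of the arrays. Same-numbered arrays correlated at r = 0.02, -0.09 and -0.03 in their deviations from the group means. A pairing that affects only some probe sets was not tested. With the replicate block, 31 probe sets passed in all, 31 at 2-fold and 0 of the Paneth cell genes, whose adjusted p was then 0.103 for DEFA5, 0.0683 for DEFA6, 0.0704 for PLA2G2A and 0.0701 and 0.0676 for PRSS2. The difference between DEFA6 and DEFA5 kept its direction, between 0.22 and 0.62, with 1 array left out, with log2(value + 16) and with the replicate block. Its exact permutation p was 0.1 to 0.6 there, in designs too small to pass the threshold, and the lowest, without DMSO replicate 2, is the smallest possible. Near background, intensity limits what can be seen of DEFA5 and DEFA6 in DMSO and of REG3A, ITLN1 and MMP7 in both groups.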

Other observations

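Matrix metalloproteases and their inhibitors, the family of MMP7, were examined as a group. Of 20 genes listed, 13 were tested and 0 passed in limma (2 higher and 1 lower at an unadjusted p under 0.05), with a median log2 change of 0.10 beside 0.02 for all genes. With variances moderated along a trend and robustly, 0 were higher and 1 was lower. TIMP1, an inhibitor of these enzymes named here after its values were seen, was at 889 ± 111 in CompE and 958 ± 57.4 in DMSO (SD, n = 3 each), and REG1A, a relative of REG3A named in the same way, at 49.5 ± 8.59 in CompE and 63.8 ± 8.51 in DMSO, close to background (limma adjusted p = 0.589 and 0.255).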
